A study of Ovis aries with 9 samples.

Results

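OVGP1, TFF3, PAX8, WFDC2 and SOX17 are genes by which the secretory cells of the oviduct are commonly recognised, and they were followed here in RNA-Seq libraries of whole sheep ovaries. They were looked up by name in the count table, together with LOC101113807, a second row for OVGP1, which gave 6 of the 27174 rows. All 6 rows had enough reads to be tested, among 16871 tested rows. The group was chosen by measured values, the OVGP1 and TFF3 counts that were higher in Han than in Dorset ovaries, so every comparison of these rows between Han and Dorset is a description and carries no test. Han BB against Han ++ was not used in that choice, and tests are given for it.

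The study compared ovaries of ewes that differ in fecundity, with 1 library from each of 9 adult ewes. Han BB were 3 Small Tail Han ewes (W1, W2 and W4) carrying 2 copies of the FecB allele of BMPR1B, a receptor for bone morphogenetic proteins. Han ++ were 3 Small Tail Han ewes (W6, W7 and W8) without that allele, and Dorset were 3 ewes of the Dorset breed (D4, D5 and D6) labelled wild type. All ewes had been given sponges with a progestin and then pregnant mare serum gonadotropin to synchronise estrus, and whole ovaries with ovulation points were taken after a later spontaneous estrus. Breed and genotype do not vary independently in these groups, since BB occurs only in Han ewes.

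The lining of the oviduct is made of secretory and ciliated cells that derive from the embryonic Müllerian duct. OVGP1 encodes oviductin, a glycoprotein that the secretory cells release around the time of ovulation and that coats the egg and embryo. PAX8 and SOX17 encode transcription factors of the Müllerian duct and its epithelia, WFDC2 encodes a secreted whey acidic protein also called HE4, and TFF3 encodes a trefoil peptide that mucus-producing epithelia secrete.

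The libraries held 10803913 reads (W8) to 20992535 reads (W7). On the first principal component, which held 41.3% of the variance, W4 and D6 stood apart at -107 and -103 on the low side and D4 at 118 on the high side. The Spearman correlation of W4 with D6 was 0.978, and the lowest correlations of all pairs were those of D4 with W4 (0.870) and with D6 (0.899). Values without W4 and D6, or without D4, are therefore given beside the results. Of 14 ovarian marker genes, 13 were tested, and their summed level ranged from 373 to 1823 CPM (counts scaled to library totals of 1e6 reads) with none at 0 in any library. Those with the highest counts were OXT, CYP11A1 and PTGFR, which luteal cells express, and OXT itself ranged from 1.89 CPM in D5 to 780 CPM in D4. In libraries of whole ovaries, fewer cells of a type and less RNA per cell cannot be told apart.

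OVGP1 drew 4922 or more reads in every library, and its level was about 2.28 times as high in Han as in Dorset ewes. In Han BB it stood at 999 CPM in W1, 837 in W2 and 1119.7 in W4. In Han ++ it stood at 1822 CPM in W6, 761 in W7 and 1612 in W8. In Dorset it stood at 477 CPM in D4, 371 in D5 and 717 in D6. All 6 Han libraries lay above all 3 Dorset libraries, with W7 just above D6, and the Han BB values lay inside the range of Han ++. The mean was 985 ± 142 CPM in Han BB ewes, 1399 ± 562 CPM in Han ++ ewes and 522 ± 178 CPM in Dorset ewes (SD, n = 3 each). OVGP1 was the row with the 48th highest count in W6 and the 354th highest in D5, the ends of its range of ranks.

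The log2 fold change of OVGP1 over Dorset was 0.92 (SE 0.39) for Han BB, 1.42 (SE 0.40) for Han ++ and 1.17 (SE 0.35) for both Han groups together. These comparisons share the Dorset libraries. The last value was 1.42 without W4 and D6 and 1.10 without D4.

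The second row, LOC101113807, did not follow the first. It held 43.4 CPM in W1, 126 in W2 and 218 in W4. In Han ++ it held 46.1 CPM in W6, 182 in W7 and 30.6 in W8, and the Dorset values were 74.2 (D4), 15.3 (D5) and 123 (D6). High and low libraries occurred in every group, and the groups overlapped. Across the 9 libraries, Pearson's r between the log2 CPM of the 2 rows was 0.11, as a description of points that share libraries and their scaling.

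**Figure D1:**
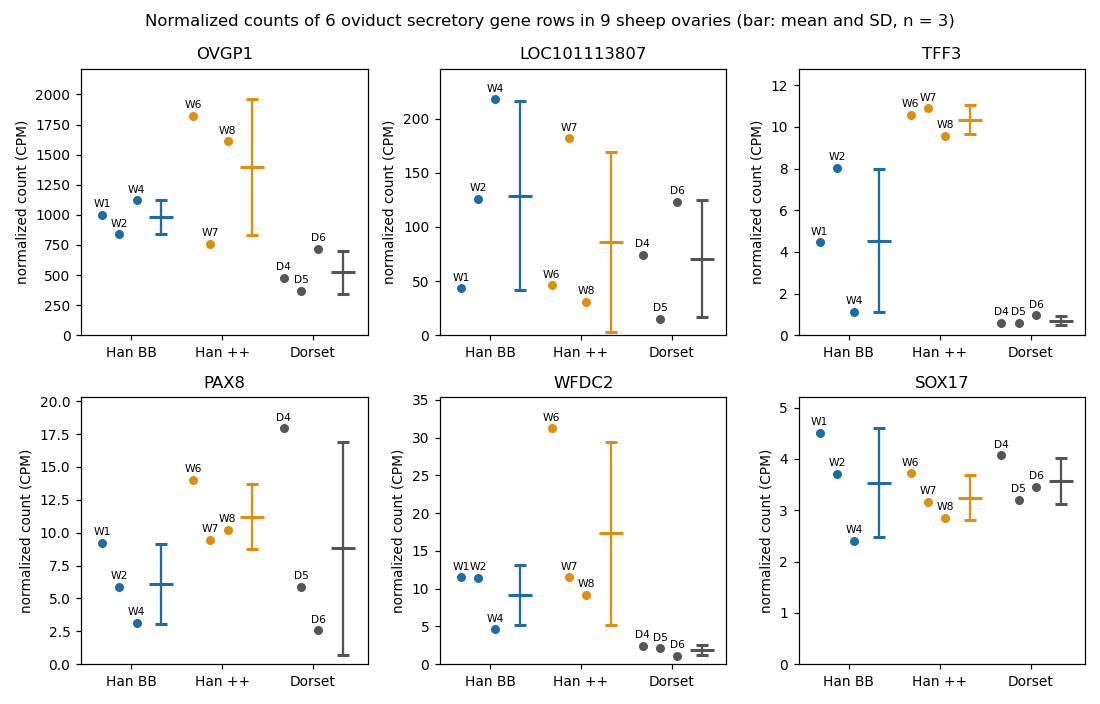
Normalized counts (CPM, linear axes from 0) of the 6 rows in each of the 9 libraries, with the mean and SD of the 3 ewes of a group beside the points. For OVGP1, TFF3 and WFDC2 all 6 Han points lie above the Dorset points, while for LOC101113807, PAX8 and SOX17 the Han and Dorset points overlap.

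The share of LOC101113807 among the reads on both OVGP1 rows fell into separate ranges. It was 4.16% in W1, 2.47% in W6, 1.86% in W8 and 3.97% in D5. In the other 5 libraries it was 13.1% in W2, 16.3% in W4, 19.3% in W7, 13.5% in D4 and 14.6% in D6. No library lay between 4.16% and 13.1%, while the 95% Wilson intervals were narrow, from 3.90% to 4.43% in W1 and from 12.5% to 13.6% in W2. These intervals cover counting error only. Low and high shares both occurred in each group, and the group means were 11.2% ± 6.28 (Han BB), 7.88% ± 9.89 (Han ++) and 10.7% ± 5.85 (Dorset; SD, n = 3 each).

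In the reference annotation of the assembly ARS-UI_Ramb_v3.0, the gene number of LOC101113807 carries the symbol OVGP1. The RefSeq transcript that the study lists for the OVGP1 row belongs there to a gene named LOC443344, on the same chromosome with 2 loci between them. Those 2 loci, LOC114108733 and the pseudogene LOC106990799, have no row of their own in the count table. Only uniquely mapped reads were kept, and the sequences of the 2 rows were not compared here, so how far reads of one row could count for the other is not known. With both rows summed, a choice made after the values were seen, Han exceeded Dorset by 1.12 on the log2 scale.

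**Figure D2:**
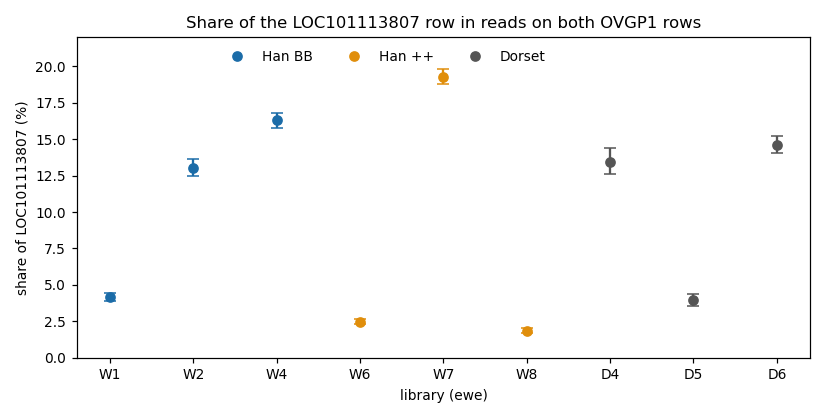
Share of the LOC101113807 row in the reads on both OVGP1 rows (percent, axis from 0) in each library, with 95% Wilson intervals and colours for the groups. The 4 libraries with 1.86% to 4.16% and the 5 with 13.1% to 19.3% include ewes of all 3 groups.

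TFF3 had few reads, and its levels differed between Han and Dorset more than those of any other of the 6 rows. It held 4.46 CPM in W1, 8.05 in W2 and 1.14 in W4. It held 10.6 CPM in W6, 10.9 in W7 and 9.56 in W8, against 0.582 in D4, 0.586 in D5 and 0.949 in D6. The Han ++ ewes lay close together, with a mean of 10.3 ± 0.700 CPM against 4.55 ± 3.46 in Han BB and 0.706 ± 0.211 in Dorset (SD, n = 3 each). Every Han library lay above every Dorset library, but W4 lay within 0.2 CPM of D6. Behind these values stood 6 to 17 reads per Dorset library and 17 to 241 reads per Han library, so that the Dorset values are the least certain.

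For TFF3 the log2 fold change over Dorset was 2.66 (SE 0.62) for Han BB and 3.85 (SE 0.64) for Han ++. Without W4 and D6 these values were 3.38 and 4.13, and without D4 they were 2.56 and 3.75. Without W2 the value for Han BB was 1.98.

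TFF3 lies beside TFF2 and TFF1 in the reference annotation, with 0 genes between TFF3 and TFF2 and 0 between TFF2 and TFF1. TFF2 is the trefoil peptide typical of gastric mucous cells. It held 7.07 CPM in W1, 24.5 in W2 and 2.01 in W4, and 29.2 in W6, 59.1 in W7 and 58.3 in W8. In Dorset it held 102 CPM in D4, 5.19 in D6 and 0 reads in D5, where a count of 0 allows up to 0.135 CPM (3 counts). In the Han ewes TFF2 was lowest in W4, then W1, then W2, and higher in all 3 Han ++ ewes, an order that TFF3 shared. The Dorset ewes, low throughout for TFF3, held both the highest and the lowest TFF2 value of the series, and TFF2 did not pass the test in Han against Dorset (log2 fold change -0.61, SE 1.23, edgeR adjusted p = 0.999). That log2 fold change was 3.18 (SE 1.31) without D4 and -0.85 (SE 1.20) without W4 and D6. In Han BB against Han ++ it was -2.13 (SE 1.51, edgeR adjusted p = 0.999). TFF1, an estrogen-responsive trefoil peptide in other tissues, had at most 4 reads in a library and was not tested.

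WFDC2 was the third row that did not overlap between Han and Dorset. It held 11.5 CPM in W1, 11.5 in W2 and 4.61 in W4. It held 31.3 CPM in W6, 11.5 in W7 and 9.19 in W8, against 2.43 in D4, 2.12 in D5 and 1.12 in D6. W6 stood well above all other libraries, and W4 was the lowest Han library, as it was for TFF3. The log2 fold change over Dorset was 2.29 (SE 0.57) for Han BB and 3.21 (SE 0.58) for Han ++, and the value for Han ++ was 2.45 without W6. Without W4 and D6 these values were 2.33 and 2.95, and without D4 they were 2.49 and 3.41. OVGP1, TFF3 and WFDC2 were thus the 3 of 6 rows with Han above Dorset and no overlap. This pattern was found in 1.83% of all tested rows, and in 4.29% and 5.48% of rows when only Han BB or only Han ++ was set against Dorset. OVGP1 and TFF3 were chosen for it, so nothing is read from this count.

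The transcription factor genes gave another picture. PAX8 held 9.20 CPM in W1, 5.88 in W2 and 3.14 in W4. It held 14.0 CPM in W6, 9.45 in W7 and 10.2 in W8, against 17.9 in D4, 5.90 in D5 and 2.57 in D6. Dorset contained both the highest and the lowest PAX8 value, and its SD of 8.09 CPM was nearly as large as its mean of 8.80 CPM. On the log2 scale the difference from Dorset was -0.52 (SE 0.62) for Han BB, 0.36 (SE 0.62) for Han ++ and -0.08 (SE 0.54) for both Han groups. Without D4 these values were 0.52, 1.40 and 0.96, and without D6 they were -0.94, -0.06 and -0.50, so that the sign rested on single Dorset ewes. In D4 a single row matched to no gene name, LOC101101865, took 14.9% of all reads, against 7.69% or less in the other libraries, and its part in this value was not tested.

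The PAX8 primers designed for real-time PCR are shown because they define the stretch of the transcript that such an assay reads:
PAX8 forward: tgtccagttctagctccac
PAX8 reverse: ggaaaggcattgaagggc
These primers, of 19 and 18 bases, were not placed on a genome here.

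SOX17 was the flattest of the rows. It held 4.51 CPM in W1, 3.71 in W2 and 2.41 in W4. It held 3.72 CPM in W6, 3.16 in W7 and 2.85 in W8, with Dorset at 4.07 (D4), 3.20 (D5) and 3.46 (D6). All groups overlapped, and the highest library exceeded the lowest by a factor of 1.87, against 6.99 for PAX8, 18.7 for TFF3 and 28.0 for WFDC2. SOX17 is also a gene of endothelial cells, which the ovary holds in number. Of 10 listed endothelial and SOX family genes, 5 were tested and none passed the test in any of the 4 comparisons (edgeR adjusted p), with 1 lower in Han against Dorset at an unadjusted p under 0.05 and 0 higher, where 3.5% of all rows were lower. Those with the highest counts were KDR (listed as LOC443087), PECAM1 and CDH5. KDR and PECAM1 had log2 fold changes of -0.41 and -0.05 in Han against Dorset. CDH5 held 53.5 to 88.2 CPM in Han and 44.7 to 72.0 CPM in Dorset libraries. Of the 5 tested genes, 2 had a positive log2 fold change in Han against Dorset, where 45.5% of all rows did.

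The question whether these genes differ with the FecB genotype is answered by Han BB against Han ++, within a single breed. None of the 6 rows passed the edgeR test (adjusted p = 0.999 for each), where 0% of all rows were called, and none had an unadjusted p under 0.05, where 1.97% of all rows did. DESeq2 and limma voom also called 0 of the 6. Of the 6 log2 fold changes, 4 were below 0.

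TFF3 had the smallest p of the 6. Its log2 fold change was -1.19 (SE 0.56), with a 95% interval of the fold from 0.186 to 1.04. limma voom put TFF3 under an unadjusted p of 0.05, with an adjusted p of 0.646. In edgeR, TFF3 also came under an unadjusted p of 0.05 without W2 (log2 fold change -1.87, adjusted p = 0.886) and without a filter on low counts (-1.19). Without W4 the log2 fold change was -0.74. All 3 Han BB values lay below all 3 Han ++ values. PAX8 shared this order with a log2 fold change of -0.88 and an interval of the fold from 0.210 to 1.40. These were 2 of 6 rows, where 4.59% of all rows had Han BB below Han ++ without overlap.

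For WFDC2 the log2 fold change was -0.92 with an interval of the fold from 0.236 to 1.19, and it was -0.16 without W6 and -1.23 without W8, where it came under an unadjusted p of 0.05. For OVGP1 it was -0.51 with an interval from 0.389 to 1.27. LOC101113807 had a log2 fold change of 0.58 (interval of the fold 0.428 to 5.22), which was -0.05 without W4. SOX17 had 0.13 (interval 0.589 to 2.02), which was -0.10 without W1. The intervals leave room for levels in Han BB higher by a factor of more than 2 for LOC101113807 and SOX17, and lower by more than that factor for LOC101113807 and the other 4.

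**Figure D3:**
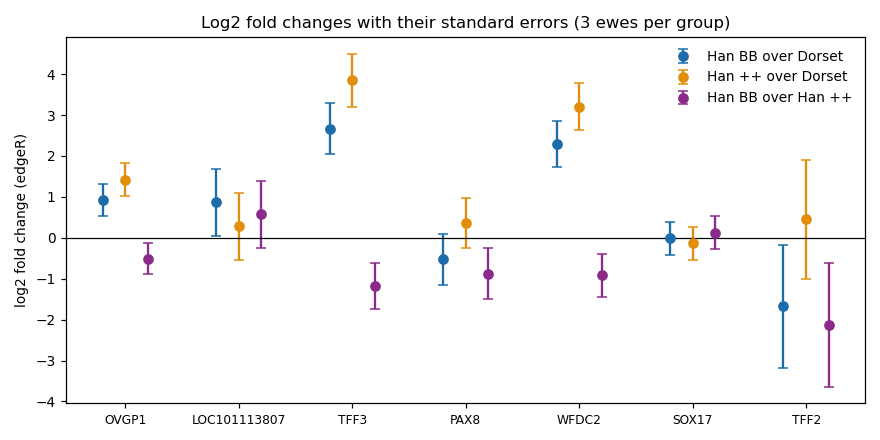
Log2 fold changes of the 6 rows and of TFF2 with their standard errors (3 ewes per group) for Han BB over Dorset, Han ++ over Dorset and Han BB over Han ++. TFF3 and WFDC2 have the highest values over Dorset, SOX17 lies near 0 in all 3 comparisons, and TFF2 has the widest error bars.

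The 6 rows were compared with lists of related genes. These lists were chosen with earlier results of these data known, so their counts beside all rows are a description. Of 16 other secreted or surface proteins of mucosal epithelia, 8 were tested and none passed the edgeR test in any comparison. In Han against Dorset 5 of the 8 had a positive log2 fold change, where 45.5% of all tested rows did. MUC1 was higher at an unadjusted p under 0.05, where 2.63% of all rows were, and the median was 0.18 against -0.04 over all rows. Without D4, 9 genes of the list were tested and all 9 were positive, where 51.9% of all rows were, and 2 had an unadjusted p under 0.05. Without W4 and D6, 4 of 9 were positive, where 43.9% of all rows were, and 2 were higher at an unadjusted p under 0.05. The median in that fit was -0.04 against -0.08 over all rows. In Han BB against Han ++ 1 of the 8 was positive, where 53.4% of all rows were, and 2 were lower at an unadjusted p under 0.05, where 1.09% of all rows were. CLU, a secreted chaperone found in many cell types, held 1421 ± 482 CPM (Han BB), 1511 ± 368 CPM (Han ++) and 1459.9 ± 435 CPM (Dorset; SD, n = 3 each). AGR2, a protein disulfide isomerase of mucus-secreting cells, held 4.78 ± 1.03, 11.0 ± 2.46 and 5.60 ± 3.06 CPM in the same order. Its log2 fold change of -1.20 in Han BB against Han ++ did not pass the edgeR test (adjusted p = 0.999).

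Relatives by protein family gave no calls. OVGP1 belongs to the chitinase family, of which CHI3L1, CHID1 and CTBS were the tested members of 6 listed. In Han against Dorset their log2 fold changes were 0.58 (SE 0.44), 0.04 (SE 0.35) and 1.69 (SE 0.87). Of 7 relatives of WFDC2, 4 were tested, 3 of them positive, with WFDC1 at 0.01, WFDC3 at 0.19 and SLPI at -0.23. Without D4, 3 of 3 chitinase relatives and 4 of 4 WFDC2 relatives were positive, where 51.9% of all rows were. Their medians were then 1.04 and 1.57, against 0.02 over all rows. In that fit 1 WFDC2 relative was higher at an edgeR unadjusted p under 0.05, where 4.93% of all rows were. Without W4 and D6, 3 of 4 and 2 of 4 were positive, where 43.9% of all rows were.

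Genes of the Müllerian duct gave no calls. Of 8 listed transcription factors and signals, 4 were tested, none passed, and 1 of the 4 was above 0 in Han against Dorset, where 45.5% of all rows were. In Han BB against Han ++ all 4 were above 0, where 53.4% of all rows were, with a median of 1.05 against 0.04 over all tested rows. With all libraries HOXA9 alone was higher there at an unadjusted p under 0.05 (log2 fold change 1.47, SE 0.52, edgeR adjusted p = 0.999), where 0.877% of all rows were. Without W4 and D6, 3 of the 4 were above 0 in Han BB against Han ++, where 46.8% of all rows were. The median was then 1.55, and 2 were higher at an edgeR unadjusted p under 0.05, where 1.48% of all rows were. HOXA10 and HOXA9, which pattern the uterus and oviduct, had log2 fold changes of 0.91 (SE 0.64) and -0.09 (SE 0.44) in Han against Dorset. EMX2, which is needed for the Müllerian duct to form, had -0.83 (SE 0.64).

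Thyroid hormone genes were listed because the study links PAX8 to thyroid hormone synthesis. Of 12, 6 were tested and none passed, and HHEX, TG and DUOX1 stood at mean levels of 3.00, 2.13 and 1.46 CPM. Among 5 steroid receptor and estrogen target genes, 4 were tested and none passed, with log2 fold changes in Han against Dorset of -0.11 for ESR1, 0.42 for PGR (listed as LOC443444) and -0.08 for GREB1. Of 6 markers of the ovarian surface and mesothelium, 5 were tested and none passed, with 0.23 for MSLN, -0.36 for BNC1 and -0.66 for CALB2. These counts are by edgeR, and in Han against Dorset no gene of the thyroid, steroid receptor or mesothelial lists had an unadjusted p under 0.05.

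Genes of ciliated cells, the other cell type of the oviduct lining, had higher values in Han ovaries. Of 25 listed, 22 were tested, and 20 of the 22 had a positive log2 fold change in Han against Dorset, with a median of 0.97, while 45.5% of all tested rows were positive. At an unadjusted p under 0.05, 9 of the 22 were higher and 0 lower, where 2.63% of all rows were higher. Since this list too was chosen with earlier results of these data known, the counts only describe it. ROPN1L, a protein of the ciliary radial spoke, rose in Han ++ against Dorset (log2 fold change 2.71, edgeR adjusted p = 0.0446) and was the single row called in that comparison (0.00593% of rows). It was at 25.7, 19.5 and 20.7 CPM in Han ++, against 3.30, 2.66 and 4.08 in Dorset and 10.9, 9.79 and 8.49 in Han BB. Leaving out W4 kept ROPN1L among 5 calls, and leaving out any other single library left 0 calls.

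TPPP3, DNAH5 and DNAH9 were the ciliated genes with the highest counts, and they had log2 fold changes of 0.97 (SE 0.34), 1.33 (SE 0.62) and 0.12 (SE 0.25) in Han against Dorset. The summed level of the ciliated list was 242 to 538 CPM in Dorset. It was 377 to 1095 CPM in Han BB and 610 to 935 CPM in Han ++ ewes. W4 had the highest sum of the 9 libraries although it had the lowest TFF3 and WFDC2 of the Han libraries. At most 1 gene of this list was at 0 in a library. Without W4 and D6, 20 of the 22 genes were again positive in Han against Dorset, 13 of them at an unadjusted p under 0.05, where 4.14% of all rows were higher in that fit. In Han ++ against Dorset that fit called 4 of the 22, where it called 22 of 18463 rows in all (0.119%). These were ROPN1L, CAPS, SPAG6 and CAPSL, of which the last pair was named after their values were seen. Without D4, 19 of the 22 were positive in Han against Dorset, 8 of them at an unadjusted p under 0.05, where 4.93% of all rows were higher, and none was called.

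General epithelial genes were also higher in value. Of 16 tested, 13 had a positive log2 fold change in Han against Dorset, where 45.5% of all rows did, with a median of 0.54. None passed the edgeR test. At an unadjusted p under 0.05, 4 were higher, where 2.63% of all rows were (CDH1, CLDN7, SPINT1 and ST14, named after their values were seen). Without W4 and D6, 13 were positive, where 43.9% of all rows were, and 9 were higher at an unadjusted p under 0.05, where 4.14% were. In that fit KRT7, also named after its value was seen, was called in Han ++ against Dorset, where 0.119% of all rows were. Without D4, 14 were positive, where 51.9% of all rows were, 3 were higher at an unadjusted p under 0.05, where 4.93% were, and none was called. KRT8, KRT19 and EPCAM, which had the highest counts of the list, stood at 0.24, 0.66 and 0.92. The summed level was 261 to 534 CPM in Dorset. In the Han groups it was 365 to 599 CPM (BB) and 522 to 588 CPM (++). Ciliated and epithelial genes thus had higher values in the same breed as OVGP1, TFF3 and WFDC2, and their part in those differences was not tested.

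Between the Han groups, 6 of the 22 ciliated genes and 3 of the 16 epithelial genes were higher in Han BB, where 53.4% of all rows were. None passed the edgeR test, and 3 ciliated genes and 0 epithelial genes were lower at an unadjusted p under 0.05, where 1.09% of all rows were. Without W4 and D6, 0 of the 22 and 1 of the 16 were higher in Han BB, and 14 ciliated genes and 2 epithelial genes were lower at an unadjusted p under 0.05, where 1.93% of all rows were lower. None was called in that fit, and the median of the ciliated genes was -1.04 against -0.22 with all libraries.

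**Figure D4:**
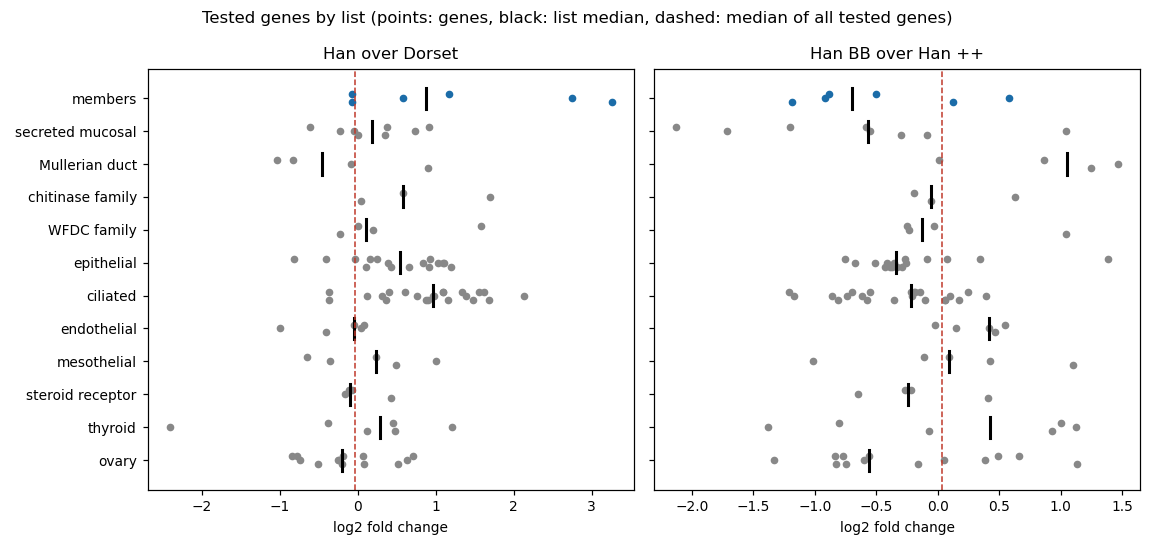
Log2 fold changes of the tested genes by list, for Han over Dorset and for Han BB over Han ++. Points are genes, black bars are list medians and the dashed line is the median of all tested genes. In Han over Dorset the medians of the ciliated (0.97), member (0.87), chitinase family (0.58) and epithelial (0.54) lists lie highest above the dashed line. Those of the thyroid (0.29), mesothelial (0.23), secreted mucosal (0.18) and WFDC family (0.10) lists also lie above it. Points of most lists fall on both sides of the line.

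The genes with the pattern most like that of OVGP1 were found by Pearson's r of log2 CPM over the 9 libraries, which describes these libraries only. ITGAX, an integrin of myeloid cells, came first with 0.952, followed by CCNA1 (0.943), CAPS (0.942), FBXO15 (0.940), C13H20orf96 (0.936), LOC101113545 (0.933), HK3 (0.928), C14H19orf18 (0.922), HMHA1 (0.922) and S100B (0.921). CAPS encodes a calcium-binding protein found in ciliated cells, and it held 13.5 to 42.3 CPM in Han and 5.45 to 11.9 CPM in Dorset libraries. LOC101113545 carries the symbol CIMAP3 in the reference, where 2 genes lie between it and LOC101113807 and 5 between it and the gene of the OVGP1 row. Its values were 3.71 to 14.5 CPM in Han and 1.71 to 2.79 CPM in Dorset libraries. OVGP1 was chosen for higher values in Han, and these genes for likeness to it over the same libraries. Nothing is therefore read from their ranges. Of all tested rows, 1.83% had Han above Dorset without overlap. The ranking was not stable, since 5 of the 10 were kept with Spearman's rho and 2 of the 10 without W4 and D6.

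Each other row had its own nearest genes. For TFF3 these were MUC1 (0.967), LOC101118562, named LRRC74B in the reference (0.959), and SLC39A9 (0.938). MUC1, a mucin on the surface of secretory epithelia, held 2.94 to 6.80 CPM in Han and 2.21 to 3.63 CPM in Dorset. These ranges are also a description only, since TFF3 too was chosen for higher values in Han. For WFDC2 they were NDFIP2 (0.970), LOC101102833.1 (0.961) and LRRIQ3 (0.959), for PAX8 LOC101110794 (0.971), C12H1orf116 (0.962) and LOC101109830 (0.956), and for SOX17 C21H11orf83 (0.981), PIK3IP1 (0.954) and RHBDD3 (0.939). For LOC101113807 they were LOC101108393 (0.937), SMS (0.929) and AIFM1 (0.925).

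Among the 6 rows themselves, TFF3 and WFDC2 were the most alike, with r = 0.887 over the 9 libraries. OVGP1 had r = 0.716 with TFF3 and 0.718 with WFDC2, but 0.121 with PAX8 and -0.18 with SOX17. These values are over libraries of which 3 are Dorset, so the difference between breeds enters each of them.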

How the data were processed

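RNA was sequenced from 9 ovaries, 3 ewes per group. Per the labels and methods, TopHat aligned the reads to Oar_v3.1, multiply mapped reads were dropped, and the authors deposited raw counts of reads per gene. Which program counted them, with which strand setting, is not given in the sources used here. The labels name the Illumina TruSeq RNA kit, while the methods describe stranded total RNA with ribosomal RNA removed. The deposited table has 27174 rows, and none of its columns was left without a sample.

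The main test was that of edgeR 4.0.16 under R 4.3.3 (quasi-likelihood F-test, TMM, filter by expression, 1 fit of 9 libraries with group as factor), and figures were drawn with matplotlib 3.10.9. Calls needed a Benjamini-Hochberg adjusted p under 0.05 over all tested rows and a fold change over 1.5 either way. CPM use TMM factors, and log2 CPM used for likeness had a prior count of 0.5. Scripts were tested on simulated data. The biological coefficient of variation was 0.472, and with 3 ewes per group this spread limits precision. The alternatives used DESeq2 1.42.0, limma 3.58.1 (voom with quality weights), other filters and scaling, only the groups compared, and omitted libraries.

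The members and the gene lists were chosen with earlier results of these data known. Named genes are the 6 members, TFF1 and TFF2, the 3 tested genes of each list with the highest mean CPM, any gene of a list called with all libraries, the 10 genes most like OVGP1 and the 3 most like each other member. Other named genes are said to have been named after their values were seen. The list counts and TFF2 values without W4 and D6 or without D4 were chosen after seeing the data. Of 129 list genes, 113 were matched to a row, by the listed name or, for 7 of them, through gene numbers of the ARS-UI_Ramb_v3.0 annotation. That annotation served for names and gene order only. Other names of a list gene were not searched, so a gene without a match can still have a row. The counts carry no gene length, so ranks, shares and sums over genes are of reads and do not measure transcript numbers. Sequences of the members were not used here.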

Additional observations from a re-analysis of the deposited data

How the results depend on the processing

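With edgeR the calls numbered 0 in Han BB against Han ++, 0 in Han BB against Dorset, 1 in Han ++ against Dorset and 0 in Han against Dorset, and unadjusted p under 0.05 were 332, 842, 889 and 1033. DESeq2 called 2, 38, 65 and 88 in the same order. limma voom called 2 in Han BB against Han ++ and 0 in Han ++ against Dorset. Without a filter on low counts the Dorset comparisons gave 2, 11 and 6 calls, and a fit of only the groups compared gave 0 for Han ++ against Dorset. Without W4 and D6 they gave 2, 22 and 6. Leaving out single libraries gave 0 to 1, 0 to 5 and 0 to 4 calls for these, the higher ends without W4, and 0 in each case for Han BB against Han ++. The 1 call in Han BB against Dorset without W4 was LOC101107996. The causes of these changes were not tested.

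None of the 6 rows was called in Han BB against Han ++ under any alternative run. SOX17 turned to -0.10 in that comparison without Han BB replicate 1 (W1), and LOC101113807 to -0.046 without Han BB replicate 4 (W4) and to -0.048 without W4 and D6 together, over leave-one-out ranges of -0.10 to 0.33 and -0.046 to 1.77. The log2 fold changes of PAX8 over Dorset were 0.52 (Han BB), 1.40 (Han ++) and 0.96 (Han) without D4, and -0.94, -0.06 and -0.50 without D6. OVGP1 over Dorset ranged from 0.97 to 1.48 for Han, and TFF3 from 2.92 to 3.53, when single libraries were left out.

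No paired analysis was possible because the animals' numbers tie no ewe of a group to a ewe of another. Few reads limit TFF3 most, with 6 to 17 in each Dorset library.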
